A study of Homo sapiens with 15 samples.

Results

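The 10 genes EHF, SPDEF, ELF3, ETS1, ETS2, ETV1, ETV4, ETV5, ERG and FLI1 were followed here, all of which encode ETS transcription factors. They were chosen by name as the ETS genes that are fused in prostate cancer together with the epithelial members of the family and both founding genes, and each was found once among the 58302 genes of the deposited tables. The study labels 15 RNA-seq libraries in 5 groups of 3. Counts of the C4-2B group were analysed here, and the DKD_scr, DKD_siPax5, ER_scr and ER_siPax5 groups were not analysed here. C4-2B, an established line of prostate adenocarcinoma cells from the LNCaP lineage, is labelled wild type, was grown in RPMI with serum and has no treatment in its labels. Nothing in the labels says whether the 3 C4-2B libraries came from separate cultures, so the spread given here may be technical.

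ETS factors share a DNA-binding domain that reads a GGA core, and they differ in the cells that make them. SPDEF, EHF and ELF3 are known from secretory and lining epithelia, and SPDEF was named for the prostate. ERG and FLI1 are best known from blood vessels and blood cells, while ETV1, ETV4 and ETV5 form the PEA3 group, which responds to fibroblast growth factor and ERK signalling. In many prostate cancers a rearrangement places ERG, ETV1, ETV4, ETV5 or, rarely, FLI1 behind the promoter of an androgen-driven gene such as TMPRSS2. ETS1 and ETS2 are targets of ERK phosphorylation and are made in many cell types.

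The 3 libraries held from 44992971 to 49569026 counts in genes, and the 10 members took 43447, 48977 and 45863 of them. The cells carried the markers of luminal prostate epithelium, with all 13 luminal genes of a list expressed, led by KLK3 at 1988 ± 21.1 TPM (SD, n = 3). TPM, a level per length, is a count divided by the gene's exon length and scaled so that every library has the same sum, and a gene was taken as expressed at 1 TPM or more in each of the 3 libraries. By this measure 61.2% of all protein-coding genes were expressed. Of the lists for other cells, few genes were expressed. The summed TPM of 5 basal markers was 1.06 to 1.28, of 8 endothelial markers 4.36 to 4.77, of 7 blood cell markers 2.21 to 3.26, of 6 fibroblast markers 7.22 to 8.91 and of 6 neuroendocrine markers 2.73 to 3.21. Their expressed genes were COL1A1 at 7.09, VWF at 2.91, LYZ at 2.08, CHGA at 1.38 and SYP at 1.31 TPM, and 0 of the 5 basal markers was, KRT14 being highest at 0.865 TPM. Among the genes of the same lists that were not expressed, TP63, COL1A2, DCN and NEUROD1 had 0 counts, PTPRC had 2 and the endothelial cadherin CDH5 had 6. The part of other cells in the members' levels was not tested. In cultures such as these, fewer cells with a transcript and less of it per cell cannot be told apart.

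In these cells the epithelial genes EHF and SPDEF were abundant, ELF3 was moderate and the genes fused in prostate cancer were low or close to absent. EHF and SPDEF stood at 528 and 338 TPM, ELF3 and ETS2 at 9.19 and 5.41 TPM, ETV4 and ETV5 below 1 TPM, and ETS1, ETV1, ERG and FLI1 at 18 counts or fewer over the 3 libraries together. Summed over the genes, SPDEF, EHF and ELF3 reached 864, 878 and 885 TPM, and ETV1, ETV4, ETV5, ERG and FLI1 reached 0.806, 1.102 and 0.883 TPM. The ratio between these sums was 957 ± 143 (SD, n = 3), and the lower sum rested on 53, 75 and 58 counts. Of the members' summed TPM, 99.3% ± 0.0294 (SD, n = 3) was in the 3 epithelial genes. Of the 10 members 4 were expressed, against 61.2% of 19708 protein-coding genes and 32.8% of all genes. The members nearest to this threshold were ETS2, whose lowest library was at 5.03 TPM, and ETV4, whose highest was at 0.766 TPM.

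**Figure D1:**
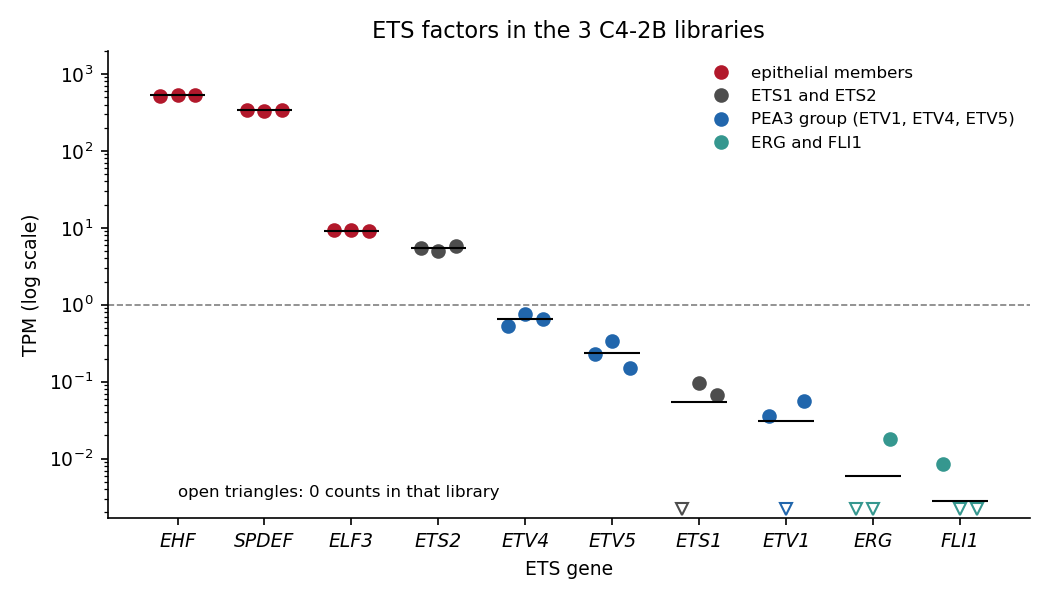
TPM of the 10 ETS members in replicates 1, 2 and 3 of C4-2B, from left to right within each gene, on a log axis, with a horizontal bar at the mean and a dashed line at 1 TPM. Open triangles mark libraries with 0 counts, drawn at an arbitrary height; EHF, SPDEF, ELF3 and ETS2 lie above the line and the other 6 below it.

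The promoters of 6 members are held in the RefSeq promoter table (GRCh38.p14), and their sequences are shown because the epithelial and the other members differ in CpG content at their outermost starts. CpG is the dinucleotide at which human DNA is methylated, and promoters rich in it are known as CpG islands. The 30 bases just before the outermost RefSeq start of each gene read as follows, on the gene's strand, with each CpG in capitals.
EHF: gctccactgcagcctgggtgtctagagacc
SPDEF: ttataatgggaaatcaggccctggccaact
ELF3: aagccctgagctcagggaggagctccctcc
ETS2: ctatctgggcacCGctcagctccagagggc
ETV1: taaacaacaatgggctggggatttaCGgct
ERG: gcctccctgaaccCGgCGcccacaccatgg
These lie at chr11:34624227-34624256 (EHF, plus strand), chr6:34556330-34556359 (SPDEF, minus), chr1:202010557-202010586 (ELF3, plus), chr21:38805153-38805182 (ETS2, plus), chr7:13991426-13991455 (ETV1, minus) and chr21:38660668-38660697 (ERG, minus). The stretches of EHF, SPDEF and ELF3 held 0 CpG, those of ETS2 and ETV1 held 1 each and that of ERG held 2.

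Over the whole promoter window of the outermost start, 250 bases before it and 50 after it, the same split was seen. The ratio of observed to expected CpG was 0.410 for EHF, 0.397 for SPDEF and 0.269 for ELF3, and it was 0.735 for ETV1, 0.799 for ETS2 and 1.22 for ERG. The ERG window, with 53 CpG, lay above 99.6% of all 35116 windows of the table. With CpG-rich taken as at least 50% GC and a ratio of at least 0.6, the outermost windows of ETS2, ETV1 and ERG were CpG-rich and those of the epithelial members were not. The split did not extend to every start. Of the 4 ERG windows 1 was CpG-rich, the other 3 having ratios of 0.284 to 0.358, below that of EHF, and of the 6 ETV1 windows 3 were CpG-rich, the lowest having 0 CpG. Both ETS2 windows were CpG-rich, and 0 of the 2 EHF windows were. Protein-coding genes were compared where they had a window in the promoter table. Of these, 80.7% of the 9854 expressed genes had a CpG-rich outermost window, against 33.6% of the other 5435. Of the 195 such genes with a window at or above the level of SPDEF, 75.4% had a CpG-rich one. EHF, SPDEF and ELF3 were thus expressed genes without a CpG-rich outermost start, while ETV1 and ERG were near-silent genes with one. This is a description of 6 genes and their RefSeq starts, and which start was used in C4-2B cannot be read from counts per gene. The outermost RefSeq starts of EHF, ELF3 and ERG lie 3164, 2642 and 1113 bases inside the deposited genes.

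**Figure D2:**
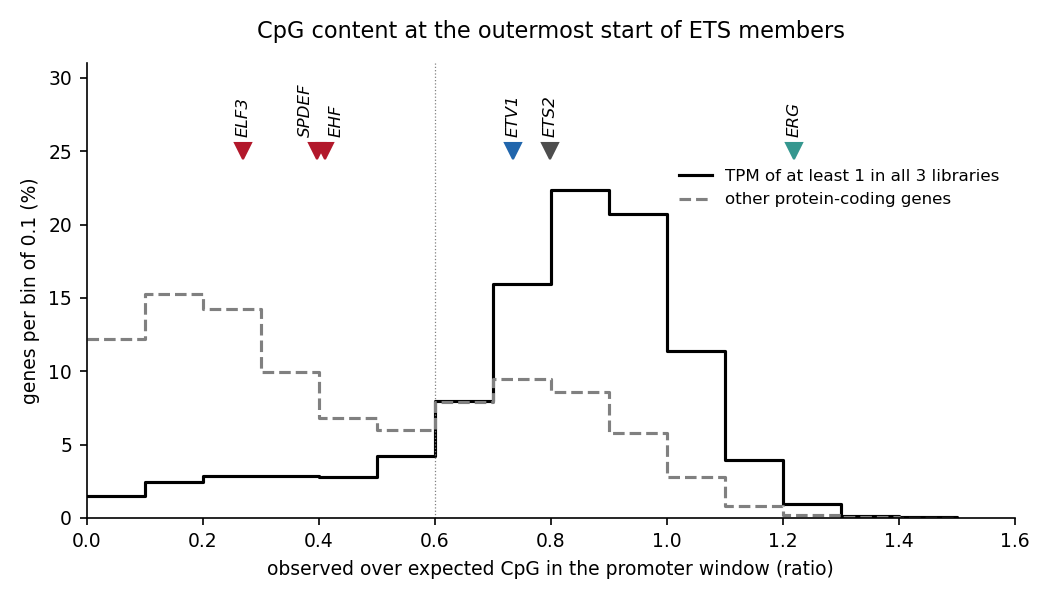
Observed over expected CpG in the outermost RefSeq promoter window (x axis) against the percent of protein-coding genes per bin of 0.1 (y axis), for expressed genes (solid, 1 TPM or more in each library) and the others (dashed). Triangles mark 6 members at an arbitrary height; ELF3, SPDEF and EHF lie from 0.269 to 0.410, left of the dotted line at 0.6, and ETV1, ETS2 and ERG from 0.735 to 1.22.

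An ETS site was also searched for in the 16 windows that the table holds for these 6 genes, on both strands. CCGGAAGT, a strong site for many ETS proteins, was in 0 of the 16 and in 4.14% of all windows. Its shorter core CCGGAA, which every CCGGAAGT contains, was in 3 windows, all of them of ETV1 and 2 of them overlapping each other, and in 17.2% of all windows.

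EHF, a repressor and activator of epithelial genes, was the most abundant ETS gene. It lies on the plus strand of chromosome 11 from 34621093 to 34661057 (ENSG00000135373) and was at 512, 534 and 539 TPM in replicates 1, 2 and 3, from 32581, 37274 and 34923 counts. Replicate 1 was the lowest, and the mean was 528 ± 14.1 TPM (SD, n = 3). This level was above 99.3% of protein-coding genes, at rank 131 of 19708. EHF alone took 43.4% of the summed TPM of all 28 ETS genes.

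SPDEF, a driver of secretory differentiation, lies on the minus strand of chromosome 6 from 34537802 to 34556333 (ENSG00000124664). It was at 342, 334 and 337 TPM in the 3 libraries, from 9484, 10190 and 9521 counts, with a mean of 338 ± 3.77 TPM (SD, n = 3). That placed it above 98.7% of protein-coding genes, at rank 254. EHF was higher than SPDEF in each library, by 1.57 ± 0.0574 times (SD of the ratio, n = 3), and their ranges did not overlap. On the scale of CPM, counts scaled to the library total without division by length, the gap was wider, at 744 for EHF and 207 for SPDEF, because the exons of SPDEF span 1914 bases and those of EHF 4386.

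ELF3, the other epithelial member, was far below them. It lies on the plus strand of chromosome 1 from 202007945 to 202017188 (ENSG00000163435) and was at 9.31, 9.25 and 9.03 TPM, with a mean of 9.19 ± 0.147 TPM (SD, n = 3) from 970, 1059 and 959 counts. The libraries lay close together, and the mean was near the middle of the protein-coding genes, above 55.0% of them. SPDEF was 36.7 ± 0.574 times and EHF 57.5 ± 2.33 times higher than ELF3 (SD of the ratio, n = 3). Of the exon bases of ELF3, 16.9% lie under exons of the antisense RNA ELF3-AS1 or of the same-strand gene ENSG00000249007. Reads there were not counted, which lowers its level, and with those bases left out of every gene's length it was 10.6 TPM. As no strand was set in counting, any antisense reads elsewhere on its exons would add to it.

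**Figure D3:**
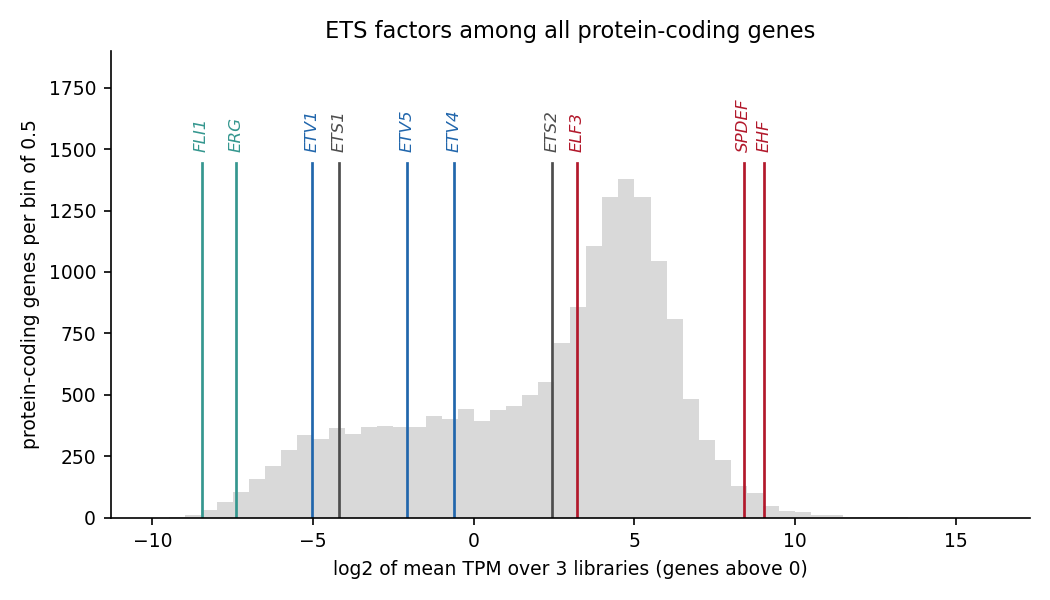
Number of protein-coding genes per bin of 0.5 in log2 of mean TPM (grey bars, 17227 genes above 0), with a vertical line at each ETS member. EHF and SPDEF lie in the upper tail and ELF3 and ETS2 left of the peak. ETV4, ETV5, ETS1 and ETV1 lie in the broad lower shoulder, and ERG and FLI1 in the tail below it.

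Of the founding pair, ETS2 was present and ETS1 was close to absent. ETS2, on the plus strand of chromosome 21 from 38805307 to 38824955 (ENSG00000157557), was at 5.39, 5.03 and 5.82 TPM from 359, 368 and 395 counts, with a mean of 5.41 ± 0.395 TPM (SD, n = 3). It lay above 49.3% of protein-coding genes. ETS1, on the minus strand of chromosome 11 from 128458761 to 128587558 (ENSG00000134954), had 0, 11 and 7 counts, or 0, 0.0967 and 0.0663 TPM. At 95%, exact Poisson bounds on its 18 counts were 10.7 and 28.4, or 0.0331 to 0.0882 TPM, which covers counting error only. Every library of ETS2 was above every library of ETS1, and the ratio of their means was 99.7.

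Within the PEA3 group the levels were low and fell in the order ETV4, ETV5 and ETV1. ETV4, on the minus strand of chromosome 17 from 43527844 to 43579620 (ENSG00000175832), had 28, 44 and 35 counts, or 0.535, 0.766 and 0.657 TPM, with a mean of 0.653 ± 0.115 TPM (SD, n = 3). ETV5, on the minus strand of chromosome 3 from 186046308 to 186110318 (ENSG00000244405), had 19, 31 and 13 counts, or 0.226, 0.336 and 0.152 TPM. The lowest library of ETV4 was above the highest of ETV5, and ETV4 was 2.99 ± 1.16 times higher (SD of the ratio, n = 3). This separation held per length, as the exons of ETV4 span 3607 bases and those of ETV5 5802. With CPM the ranges overlapped, at means of 0.756 for ETV4 and 0.443 for ETV5. ETV4 and ETV5 shared 1.89% and 2.83% of their exon bases with the neighbouring genes DHX8 and DGKG, so overlap removed little of their signal. DHX8, on the opposite strand, ends at 43544463, inside the span of ETV4, and had 3742, 4533 and 3936 counts. DGKG, on the same strand as ETV5, reaches into ETV5 and had 20, 24 and 20 counts. Any intron reads of these neighbours on other exon bases of ETV4 and ETV5 would add to their levels, also antisense ones, as no strand was set. Their part was not tested.

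ETV1, on the minus strand of chromosome 7 from 13891228 to 13991425 (ENSG00000006468), had 5, 0 and 8 counts, or 0.0359, 0 and 0.0563 TPM. The same bounds on its 13 counts were 6.92 and 22.2, or 0.0160 to 0.0512 TPM. The ETV1 exons in the table span 9616 bases, none of them under another gene, and 0 of 8441 windows of 50 bases within them recur elsewhere on the chromosomes of GRCh38, so no exon base was lost to overlap or to repeats of that length. As background, LNCaP is known for a rearrangement that moved ETV1 into the MIPOL1 region of chromosome 14 and for high ETV1 expression. MIPOL1 itself was at 5.43 ± 0.0563 TPM (SD, n = 3) and ETV1 had at most 8 counts in a library. Whether these cells carry that rearrangement was not tested, and their identity as C4-2B rests on the labels, since the luminal markers given above do not tell this line from other luminal prostate lines.

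ERG and FLI1 were at the limit of counting. ERG, on the minus strand of chromosome 21 from 38380027 to 38661780 (ENSG00000157554), had 0, 0 and 2 counts, with an upper bound of 7.22 counts or 0.0211 TPM (exact Poisson, 95%). FLI1, on the plus strand of chromosome 11 from 128686535 to 128813267 (ENSG00000151702), had 1, 0 and 0 counts, with an upper bound of 5.57 counts or 0.0151 TPM. Which of the pair was higher was not detectable at this depth. Repeats touched 0 of 6693 exon windows of 50 bases in ERG and 0.171% in FLI1.

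The order of the 10 means was the same with TPM, CPM and lengths outside overlaps. It also held with a reduced denominator and 2 other scalings. These multiply all genes of a library by the same factor, so they cannot change the order within a library. Of the 9 neighbouring pairs in this order, 6 had ranges that did not overlap, from EHF down to the pair of ETV5 and ETS1. Each of these 6 gave p = 0.1 in an exact two-sided permutation test of log2(TPM + 0.01), the smallest p that 3 libraries against 3 allow, so none could pass 0.05. The test was unpaired, although both genes of a pair were measured in the same 3 libraries. The last of the 6 was close, since the lowest library of ETV5 was at 0.152 TPM and the highest of ETS1 at 0.0967 TPM. With CPM the number of pairs apart fell to 5, since the ranges of ETV4 and ETV5 then overlapped. The remaining neighbours, ETS1 with ETV1, ETV1 with ERG and ERG with FLI1, did not differ beyond their spread, with exact permutation p-values of 0.6, 0.4 and 1.

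Of the usual fusion partners, 8 of 9 were at 111 TPM or more beside the low levels of the fused genes, and MIPOL1 was near the middle of the protein-coding genes. All 9 partner genes were expressed, against 61.2% of all protein-coding genes. The highest were the acyl-CoA synthetase ACSL3 at 341 ± 7.05 TPM, the prostate membrane protein SLC45A3 at 336 ± 10.3 TPM and the kallikrein KLK2 at 321 ± 1.503 TPM (SD, n = 3 each). The lowest were CANT1 at 147 ± 1.63, HERPUD1 at 111 ± 0.686 and MIPOL1 (TPM, SD, n = 3 each). TMPRSS2, the commonest partner of ERG, was at 202, 202 and 199 TPM, against 2 counts of ERG in all. The interval between ERG and TMPRSS2 on chromosome 21 spans 38661781 to 41464550, is lost in some prostate cancers with the fusion and holds ETS2. Of its 15 protein-coding genes, 9 were expressed (60.0%), close to the 61.2% of all protein-coding genes, and ETS2 ranked 5 by level.

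A member lies beside another ETS gene at 3 loci, and at EHF and ETS2 the neighbours differed beyond their spread. EHF and ELF5, an ETS gene of glandular epithelium, are 107287 bases apart on chromosome 11, and EHF was 40.8 ± 5.07 times higher than ELF5 at 13.1 ± 1.36 TPM (SD, n = 3 each). ETS2 and ERG are 143526 bases apart on chromosome 21, with 1122 against 2 counts. ETS1 and FLI1 are 98976 bases apart on chromosome 11, with 18 against 1 count, and their ranges overlapped.

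Compared with the rest of their family, the members held the upper end of the range and 4 of its 5 lowest levels, the other being ETV3L with 0 counts. The other 18 ETS genes had a median level of 15.2 TPM, the 10 members 0.445 TPM and all protein-coding genes 5.88 TPM. Mean levels were under 1 TPM for 6 of the 10 members and for 4 of the other 18. The 3 highest of the others were ELK4 at 73.3 ± 1.57, ELK1 at 55.4 ± 1.31, both partners of serum response factor, and the repressor ERF at 27.5 ± 1.22 (TPM, SD, n = 3 each). The 3 lowest were the blood-cell factors SPI1 with 37 counts and SPIB with 15, and ETV3L with 0 counts, which allows up to 0.0337 TPM (3 counts over the 3 libraries). The members together took 72.4% ± 0.0669 of the summed TPM of the family (SD, n = 3), of which EHF and SPDEF made up nearly all, at 71.1% ± 0.0592.

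**Figure D4:**
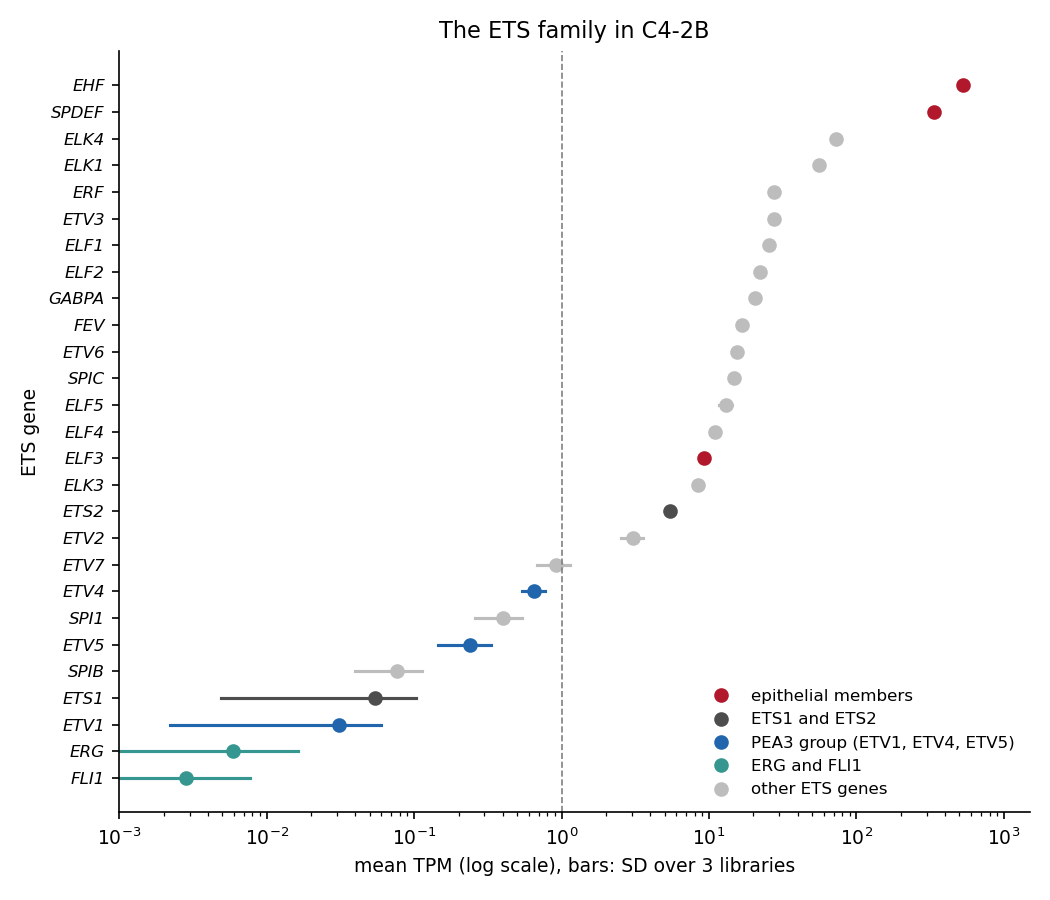
Mean TPM of 27 ETS genes with counts above 0 on a log axis, with bars of 1 SD over the 3 libraries (cut at 0.001 TPM where the SD exceeds the mean) and a dashed line at 1 TPM. Members are coloured and the other 17 are grey; EHF and SPDEF lead, ELF3 and ETS2 sit among the grey genes, and the lowest 4 points are ETS1, ETV1, ERG and FLI1.

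Genes that act on ETS proteins were present throughout. All 8 genes of the turnover and repression list were expressed, against 61.2% of all protein-coding genes, with a median of 37.5 TPM. The ubiquitin ligase subunit CUL4A was at 57.1 ± 0.726, the deubiquitinase USP9X, which acts on ERG, at 56.7 ± 1.53 and TRIM25 at 50.4 ± 1.39 (TPM, SD, n = 3 each). The lowest were COP1, the ligase that marks PEA3 proteins for destruction, at 28.9 ± 0.881, CIC, which represses the PEA3 genes, at 24.2 ± 0.572, and DET1, a partner of COP1, at 2.68 ± 0.0593 (TPM, SD, n = 3 each).

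The levels in a list of ERK feedback and PEA3-linked genes were mixed. Of its 14 genes, 10 were expressed, against 61.2% of all protein-coding genes, with a median of 4.16 TPM over the list. Cyclin D1 (CCND1) at 250.4 ± 2.72, the phosphatase DUSP4 at 58.1 ± 0.843 and SPRED2 at 28.2 ± 0.794 were highest (TPM, SD, n = 3 each). The ephrin receptor EPHA4 with 11 counts, the ERK phosphatase DUSP6 with 10, 30 and 44 counts and the feedback inhibitor SPRY4 with 53, 38 and 58 counts were lowest. DUSP6, like the PEA3 genes a standard readout of ERK activity, was thus at 0.400 ± 0.247 TPM (SD, n = 3). Of its exon bases, 40.5% lie under another gene, and the reads not counted there lower its level.

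To see how stable the members were, each gene's counts were tested for differences between the 3 libraries by chi-square, divided by 2 because both mates of a read pair were counted. This compares libraries and not conditions. Of the 10 members, 6 had the 30 counts needed for the test, and 1 of these 6, EHF, passed a Benjamini-Hochberg adjusted p of 0.05 over all genes, where 0.792% of 22229 genes did. For EHF the adjusted p was 0.0361 and the highest library was 1.04 times the lowest (log2 range 0.06), and this gap was detected on 104778 counts. The call rested on replicate 1, since without it the adjusted p was 0.947, and without replicate 3 it was 0.125. The adjusted p-values of SPDEF, ELF3, ETS2, ETV4 and ETV5 ranged from 0.676 to 0.959, with log2 ranges of 0.04, 0.06, 0.20, 0.50 and 1.12. The 4 rarest members were not tested. SLC45A3 (adjusted p of 0.00780) also passed among the partner genes and, with CLDN4 (adjusted p of 0.0421), among the luminal markers, none of the 16 other ETS genes tested did, and neither did any of the 8 turnover or 13 ERK genes tested.

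**Figure D5:**
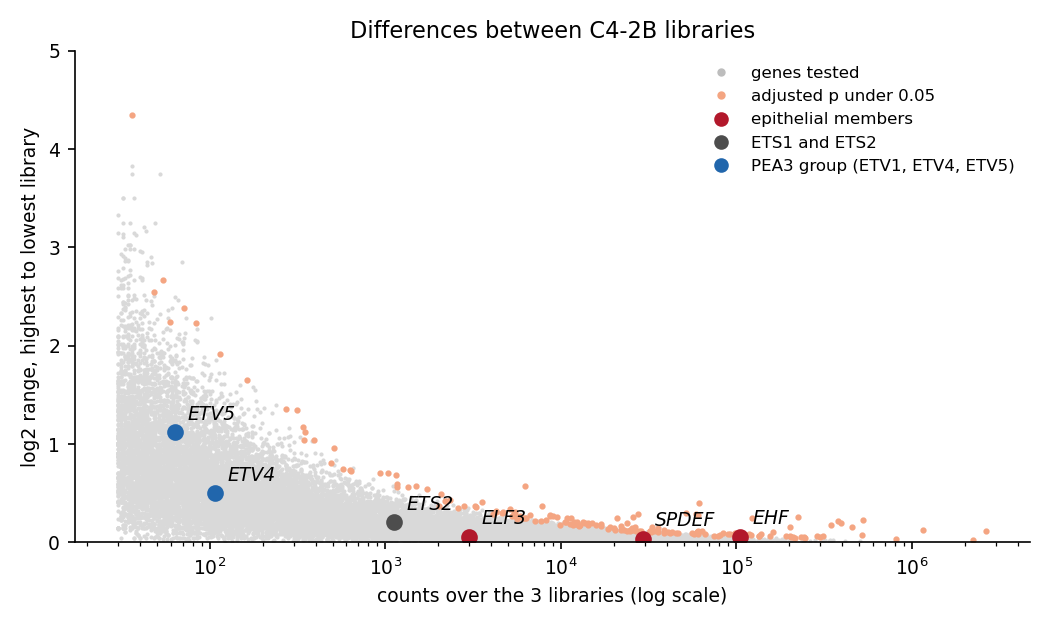
Counts over the 3 libraries (log axis) against the log2 range between the highest and lowest library, for 22229 genes (grey; adjusted p under 0.05 in orange) and the 6 members that could be tested. EHF, at 104778 counts and a log2 range of 0.06, is the member that passed, and ETV5 has the widest range at 1.12 on 63 counts.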

How the data were processed

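Total RNA of C4-2B cells was depleted of ribosomal RNA and sequenced as read pairs from directional libraries, per the labels. The authors aligned reads with STAR 2.7.0f to GRCh38 and deposited raw counts per gene from featureCounts with the Ensembl 90 annotation. Per the file headers no strand was set and mates were counted separately, and by the program's defaults reads over several genes or places were left out. The deposited gene length, another value of the authors' files, equalled the union of exons for every gene.

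TPM was computed over all 58302 genes, 57532 of them matched to a symbol by Ensembl identifier, with gene types from GENCODE 44. Libraries were compared over all genes with at least 30 counts by chi-square on TMM sizes (edgeR 4.0.16, R 4.3.3) with 2 degrees of freedom, tested on simulated data. Exon overlaps came from the deposited coordinates. Intervals of counts above 0 are exact Poisson at 95%, the limit for 0 counts is the level of 3 counts, and both are too narrow, as mates are not independent. Members and lists were chosen with earlier results of these data known. Every member is named, and of each other list except the cell type markers the 3 highest and 3 lowest genes. Of the markers, the highest luminal, the expressed other and some genes that were not expressed are named. TMPRSS2, and in the closing section FEV, SPIC and the pair of ELK4 with SLC45A3, were chosen after their values were seen. Groups came from sample titles. The 12 libraries of the other 4 groups were not used here.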

Additional observations from a re-analysis of the deposited data

How the results depend on the processing

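No paired analysis was possible because a block needs 2 groups with the same replicate numbers, and C4-2B alone was analysed here. The summed level of the members, 882 TPM, was 982 as CPM, 842 with lengths outside overlaps and 1276 without the 10 most abundant and the mitochondrial genes in the denominator. The epithelial to fused ratio was 747 with CPM, and the members' share of the family was 59.5% with CPM and 72.0% with lengths outside overlaps, since these rescale genes by length. The number of genes differing between libraries was 3835 with the chi-square not divided (17.3% of those tested, EHF alone among the members) and from 38 to 223 with 1 replicate left out. EHF was the called member in each of these fits that called 1, and from 0 to 1 members were called with 1 replicate left out; with no minimum beyond 1 count, 0 were, since more genes were tested and the adjusted p of EHF became 0.0601. With DESeq2 size factors, total counts or a minimum of 10 counts its adjusted p was 0.0264, 0.0253 and 0.0445. The number of members expressed stayed at 4 except for a TPM of at least 0.5, which added ETV4. With 1 library left out, the rarest members moved most. ETV1 was at 0.0179 TPM without replicate 3, ETS1 at 0.0331 TPM without replicate 2 and 0.0815 TPM without replicate 1, ERG at 0 without replicate 3 and FLI1 at 0 without replicate 1. All alternatives were chosen with earlier results of these data known.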

Other observations

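Several ETS genes outside the members have known roles in other tissues and were counted in C4-2B. FEV, known from serotonergic neurons, had 454, 588 and 517 counts, or 16.8 ± 1.39 TPM (SD, n = 3), above ELF3 and ETS2 in each library on this scale. With CPM the order against ELF3 turned, at 11.05 for FEV and 21.2 for ELF3, whose TPM is lowered by exon overlap. SPIC, known from macrophages of the spleen, had 232, 263 and 261 counts, or 14.8 ± 0.753 TPM (SD, n = 3). Its exons span 1132 bases, and with CPM it was at 5.37, below ELF3 and below ETS2 at 7.98. None of the exon bases of FEV and SPIC lie under another gene. Over the 3 libraries FEV ran from 15.3 to 18.0 TPM and SPIC from 14.1 to 15.6 TPM. No difference between libraries was detected at these counts, with a chi-square adjusted p over all genes of 0.665 for FEV and 0.943 for SPIC. Both were chosen after their values were seen. Beside SPIC, the 7 blood cell markers summed to 2.21 to 3.26 TPM and PTPRC had 2 counts. By contrast SPI1, a blood-cell factor of the same SPI group as SPIC, was at 0.398 ± 0.138 TPM (SD, n = 3).

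ELK4, the highest ETS gene outside the members at 73.3 ± 1.57 TPM (SD, n = 3), lies 25888 bases from SLC45A3 on chromosome 1, which was at 336 ± 10.3 TPM (SD, n = 3). A transcript that runs from SLC45A3 into ELK4 is known from prostate cancer as background, and counts per gene cannot separate it from transcripts that start at ELK4. ELK4 took 6.02% of the summed TPM of the family, and was next after EHF and SPDEF per length, while by CPM it was above SPDEF, at 286 against 207.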
